A study of Mus musculus with 8 samples.

Results

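The adenines called as modified on chromosomes 8 and 11 were described in mouse embryonic stem (ES) cells. Every line of the 4 deposited lists that lay on chromosome 8 or chromosome 11 was taken, which gave 1080 calls on chromosome 8 and 1126 on chromosome 11, 2206 of 17418 in all. The pair was named for gains of these chromosomes, which are common in cultured ES cells, and it was also selected on the call densities of these same lists, so densities are given as a description with no test. The other 17 autosomes, without 3 windows of dense calls (chromosome 9 at 3.0 to 3.1 Mb, chromosome 14 at 19.4 to 19.5 Mb and chromosome 2 at 98.6 to 98.7 Mb), held 12966 calls and served for comparison.

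The cells were of the TT2 line, from a C57BL6 x CBA background, grown without feeder cells and used between passage 5 and 10. Alkbh1 knockout (KO) cells were set against wild-type (WT) cells. Alkbh1 encodes a dioxygenase of the AlkB family that has been described as a demethylase of N6-methyladenine. From both, chromatin was immunoprecipitated without crosslinking with a customized antibody to H2A.X, and its long (L) and short (S) DNA were separated and sequenced on single molecules. The 8 samples were 2 replicates of KO L, WT L, KO S and WT S, and both replicates of a group pointed to the same list. No value could therefore be split by replicate, differences between genotypes had no replicate check, and no test was made between lists. The labels say neither whether the replicates came from separate cultures nor whether the KO cells came from a single clone.

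Mouse ES cells in long culture often gain a whole extra copy of chromosome 8 or 11, since cells with some gains outgrow the others. A library of sequenced DNA holds more molecules of a chromosome that is present in more copies. H2A.X is a histone variant found along all chromosomes and known for its phosphorylation around DNA breaks. Single-molecule real-time sequencing times each base added by a polymerase, which can pause at a modified one. The IPD ratio (IPD, inter-pulse duration) is the observed time over that predicted without a modification. A call needs both a slow base and enough passes over it. Coverage is listed for called bases alone, and the depth elsewhere is not known. Coverage at the calls of the whole series started at 6, and the modification score at 20.

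A highest-scoring call of each list on the 2 chromosomes is printed here to show what a call is. In KO L on chromosome 8 a call in Pard3 tied with the printed call at a score of 43, with an IPD ratio of 9.34. Each context holds 41 bases of the called strand, 5′ to 3′, with the called adenine in capitals, in mm10 coordinates. The first 4 lie on chromosome 8 and the last 4 on chromosome 11.
KO L, before Dnajb1, chr8:83608010-83608050, minus strand: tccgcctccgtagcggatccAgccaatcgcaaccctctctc
WT L, Gm39238, chr8:106362537-106362577, plus strand: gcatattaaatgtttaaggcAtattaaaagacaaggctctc
KO S, Sntb2, chr8:107010453-107010493, plus strand: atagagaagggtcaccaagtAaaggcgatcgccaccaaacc
WT S, outside genes, chr8:4409734-4409774, plus strand: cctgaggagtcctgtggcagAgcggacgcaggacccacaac
KO L, outside genes, chr11:86452336-86452376, minus strand: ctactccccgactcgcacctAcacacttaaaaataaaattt
WT L, outside genes, chr11:31232325-31232365, plus strand: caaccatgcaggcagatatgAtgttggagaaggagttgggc
KO S, outside genes, chr11:42082282-42082322, plus strand: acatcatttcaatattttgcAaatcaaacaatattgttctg
WT S, Arhgap23, chr11:97428036-97428076, minus strand: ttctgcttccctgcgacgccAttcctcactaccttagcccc

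The strongest of these calls lay on chromosome 8 in WT S, outside annotated genes, with a score of 94, a coverage of 80, an IPD ratio of 5.04 and a modified fraction of 79%. The highest score on chromosome 8 was 43 in KO L, 53 in WT L and 49 in KO S. On chromosome 11 it was 49 in KO L, 44 in WT L, 57 in KO S and 54 in WT S. The KO L call of chromosome 11 had a coverage of 59 and an IPD ratio of 1.86 with a modified fraction of 25.9%, whereas the WT S call in Arhgap23 had a coverage of 26, an IPD ratio of 5.47 and a fraction of 100%. High scores were thus reached at both a high and a low estimated fraction.

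Both chromosomes carried more calls per length than the median of the other autosomes in every list. Chromosome 8 held 190 calls in KO L, 209 in WT L, 228 in KO S and 453 in WT S. Its density per 10 Mb was 14.7 in KO L, 16.2 in WT L, 17.6 in KO S and 35.1 in WT S. Chromosome 11 held 201 calls in KO L, 255 in WT L, 216 in KO S and 454 in WT S, at a density per 10 Mb of 16.5 in KO L, 20.9 in WT L, 17.7 in KO S and 37.2 in WT S. The median over the 17 other autosomes was 9.72 per 10 Mb in KO L, 12.2 in WT L, 10.8 in KO S and 24.1 in WT S. Together the 2 chromosomes held 12.8% of the calls of KO L (exact 95% interval 11.7% to 14.1%), 12.01% of WT L (11.01% to 13.1%), 13.2% of KO S (12.1% to 14.4%) and 12.7% of WT S (11.9% to 13.5%).

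Relative to the median of the other autosomes, the density on chromosome 8 was 1.51 in KO L (exact 95% Poisson interval 1.30 to 1.74), 1.33 in WT L (1.15 to 1.52), 1.63 in KO S (1.42 to 1.86) and 1.45 in WT S (1.32 to 1.59). The density on chromosome 11 was 1.70 in KO L (1.47 to 1.95), 1.72 in WT L (1.51 to 1.94), 1.64 in KO S (1.43 to 1.87) and 1.54 in WT S (1.40 to 1.69). These intervals cover counting error only and hold the median of the other autosomes fixed. Among the 19 autosomes, chromosome 11 came 1st in each list, and chromosome 8 came 2nd in KO L, KO S and WT S and 3rd in WT L.

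The next chromosome in this order was chromosome 1, at 1.36 in KO L, 1.69 in WT L, 1.34 in KO S and 1.35 in WT S, which put it above chromosome 8 in WT L. Its intervals overlapped those of chromosome 8 in KO L (1.20 to 1.54), KO S (1.19 to 1.504) and WT S (1.25 to 1.46), and in WT L they did not overlap (1.53 to 1.86 on chromosome 1). Without chromosome 1, the highest of the others was chromosome 17 at 1.26 in KO L and 1.31 in KO S, chromosome 10 at 1.20 in WT L and chromosome 12 at 1.10 in WT S. Chromosome X, of which a male line such as TT2 has a single copy, stood at 0.476 in KO L, 0.428 in WT L, 0.417 in KO S and 0.400 in WT S. The number of copies of chromosomes 8, 11 and 1 in these cultures was not measured here, and its part in the densities was not tested.

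**Figure D1:**
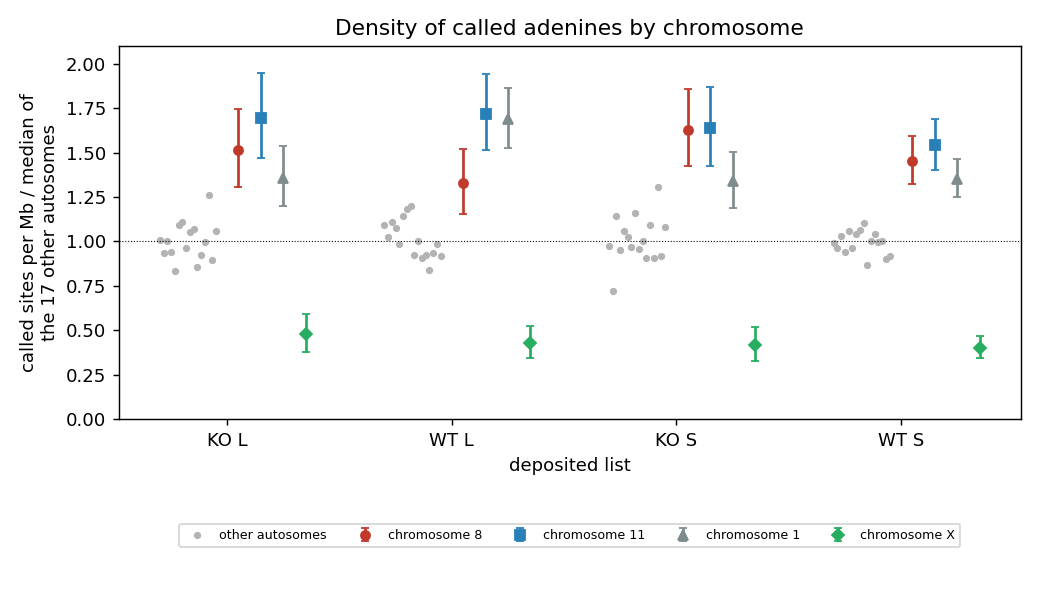
Called sites per Mb on each chromosome divided by the median of the 17 other autosomes (vertical axis, linear) in the 4 lists, with exact 95% Poisson intervals of the count for chromosomes 8, 11, 1 and X. Chromosome 11 sits between 1.54 and 1.72 and chromosome 8 between 1.33 and 1.63, while chromosome X sits between 0.400 and 0.476.

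Gene content differed between the 2 chromosomes. Chromosome 11 had 13.2 protein-coding genes per Mb and came 2nd of the 19 autosomes, and chromosome 8 had 8.07 and came 9th. Chromosome 7, the richest in coding genes with 13.97 per Mb, had a relative density of calls of 1.09 in KO L, 1.14 in WT L, 1.02 in KO S and 0.960 in WT S. Chromosome 19, the 3rd in coding genes, had 1.06 in KO L, 0.916 in WT L, 1.08 in KO S and 0.917 in WT S. Chromosome 17, the 4th, had 1.26 in KO L, 0.935 in WT L, 1.31 in KO S and 1.0004 in WT S, and in KO L and KO S it was the highest of the others after chromosome 1. Over all 19 autosomes, Pearson's r of call density with coding genes per Mb was 0.43 in KO L, 0.25 in WT L, 0.38 in KO S and 0.14 in WT S. Over the 17 other autosomes, Pearson's r of call density with coding genes per Mb was 0.29 in KO L, -0.03 in WT L, 0.26 in KO S and -0.27 in WT S, as a description over chromosomes that share their libraries.

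The higher density was present inside and outside genes. Within genes, chromosome 8 stood at 1.82 in KO L, 1.46 in WT L, 1.70 in KO S and 1.501 in WT S, each relative to the median of the other autosomes for genes. Outside genes it stood at 1.19 in KO L (0.943 to 1.49), 1.17 in WT L (0.940 to 1.43), 1.63 in KO S (1.33 to 1.96) and 1.43 in WT S (1.25 to 1.64), so that in L both intervals reached below 1. Chromosome 11 stood at 1.91 in KO L, 1.83 in WT L, 1.63 in KO S and 1.60 in WT S within genes, and at 1.39 in KO L, 1.504 in WT L, 1.69 in KO S and 1.46 in WT S outside them. Genes held 62.2% of the calls of chromosome 11 in KO L, 62.0% in WT L, 57.4% in KO S and 60.4% in WT S, against 50.6% in KO L, 52.9% in WT L, 51.6% in KO S and 53.1% in WT S on the other autosomes. Genes cover 53.8% of chromosome 11, the 2nd highest share of the autosomes, and 47.3% of chromosome 8.

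Along both chromosomes the calls were spread over nearly the whole length. In 5 Mb bins, counting the 24 full bins of chromosome 8 and the 23 of chromosome 11, no bin was without a call in any list. On the 17 other autosomes, 9 of 417 full bins held no call in KO L, 2 in WT L, 4 in KO S and 0 in WT S. The median bin of chromosome 8 held 7 calls in KO L, 8 in WT L, 8 in KO S and 18 in WT S. That of chromosome 11 held 8 in KO L, 11 in WT L, 9 in KO S and 20 in WT S, and that of the other autosomes 5 in KO L, 6 in WT L, 5 in KO S and 12 in WT S.

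Most bins lay above the median bin of the other autosomes. On chromosome 8 this held for 19 of 24 bins in KO L (79.2%), 17 in WT L (70.8%), 22 in KO S (91.7%) and 19 in WT S (79.2%). On chromosome 11 it held for 17 of 23 bins in KO L (73.9%), 17 in WT L (73.9%), 19 in KO S (82.6%) and 20 in WT S (87.0%). Of the bins of the other autosomes themselves, 39.3% in KO L, 46.3% in WT L, 48.7% in KO S and 45.3% in WT S lay above that median, since many bins equalled it. On chromosome 1 the share was 60.5% in KO L, 78.9% in WT L, 68.4% in KO S and 65.8% in WT S, so that in WT L it was higher there than on chromosomes 8 and 11.

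**Figure D2:**
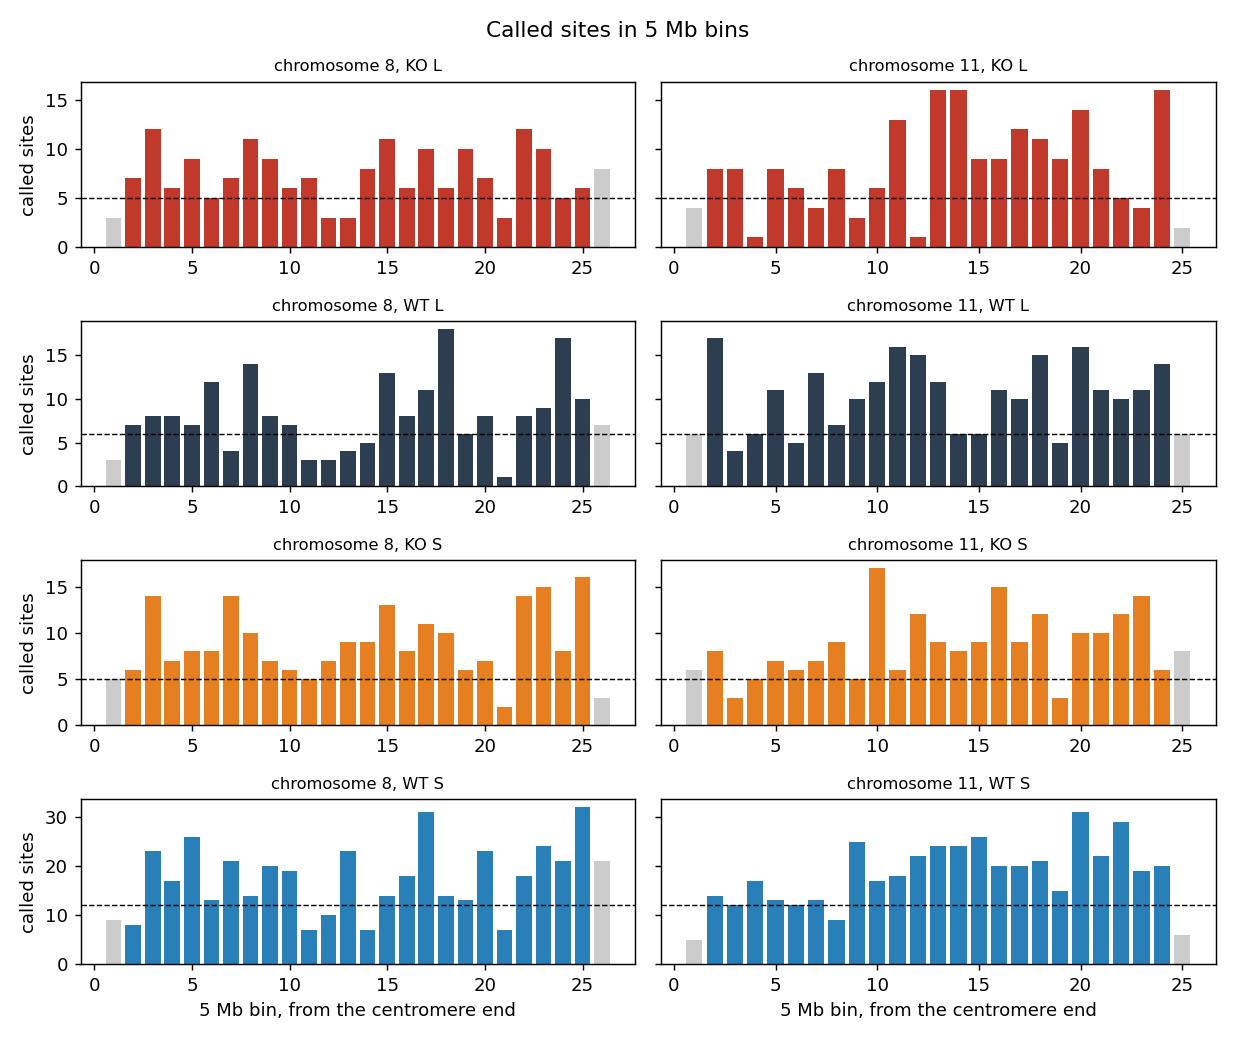
Called sites (vertical axis) in consecutive 5 Mb bins counted from the centromere end (horizontal axis) of chromosome 8 (left) and chromosome 11 (right), with a row for each list and the median full bin of the other autosomes as a dashed line. Grey bars are bins that the annotated span fills only in part. Most bars of both chromosomes stand above the dashed line, with low bins on chromosome 8 around bin 11, bin 12 and bin 21.

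The fullest bins were ranked by their mean share of a chromosome's calls over the 4 lists. On chromosome 8 the bin at 80 to 85 Mb came first, with 10 calls in KO L, 11 in WT L, 11 in KO S and 31 in WT S, and it holds the calcium channel gene Cacna1a. The bin at 120 to 125 Mb followed with 6 calls in KO L, 10 in WT L, 16 in KO S and 32 in WT S. The bin at 110 to 115 Mb held 10 calls in KO L, 9 in WT L, 15 in KO S and 24 in WT S. The 3 emptiest bins of chromosome 8 were at 100 to 105 Mb, 55 to 60 Mb and 50 to 55 Mb, with 13, 23 and 22 calls over all lists. The first of these held 3 calls in KO L, 1 in WT L, 2 in KO S and 7 in WT S, and genes cover 21.4% of it, against 60.7% of the 80 to 85 Mb bin.

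On chromosome 11 the bin at 95 to 100 Mb came first, with 14 calls in KO L, 16 in WT L, 10 in KO S and 31 in WT S. It overlaps 256 annotated genes, the most of any bin on this chromosome, among them the Hoxb cluster and the thyroid hormone receptor gene Thra. The bin at 60 to 65 Mb followed with 16 calls in KO L, 12 in WT L, 9 in KO S and 24 in WT S, and that at 85 to 90 Mb held 11 in KO L, 15 in WT L, 12 in KO S and 21 in WT S. The 3 emptiest bins were at 15 to 20 Mb, 10 to 15 Mb and 25 to 30 Mb, with 29, 27 and 29 calls over all lists. The first of these held 1 call in KO L, 6 in WT L, 5 in KO S and 17 in WT S, and genes cover 20.4% of it, against 62.8% of the 95 to 100 Mb bin.

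Bins with more gene sequence tended to hold more calls. Pearson's r between the calls of a full bin and the share of the bin in genes was 0.41 in KO L, 0.37 in WT L, 0.66 in KO S and 0.53 in WT S over the 24 bins of chromosome 8. Over the 23 bins of chromosome 11 it was 0.49 in KO L, 0.51 in WT L, 0.45 in KO S and 0.53 in WT S. Between KO and WT the bin profiles were related at r = 0.26 in L and 0.57 in S on chromosome 8, and at 0.17 in L and 0.32 in S on chromosome 11. These correlations describe neighbouring bins of the same libraries.

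Split at the middle of its span, chromosome 11 stood further above the other autosomes in its distal part than in its proximal part in KO L, KO S and WT S, and less far in WT L. Relative to the median of the same part of the other autosomes, the distal part stood at 2.03 in KO L (1.69 to 2.42), 1.59 in WT L (1.32 to 1.88), 1.98 in KO S (1.65 to 2.36) and 1.77 in WT S (1.57 to 1.995). The proximal part stood at 1.31 in KO L (1.03 to 1.64), 1.72 in WT L (1.43 to 2.04), 1.37 in KO S (1.10 to 1.68) and 1.29 in WT S (1.11 to 1.49). On chromosome 8 the distal part stood at 1.55 in KO L, 1.44 in WT L, 1.86 in KO S and 1.498 in WT S. Its proximal part stood at 1.45 in KO L, 1.10 in WT L, 1.47 in KO S and 1.39 in WT S, and in WT L the interval of 0.878 to 1.35 included 1.

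**Figure D3:**
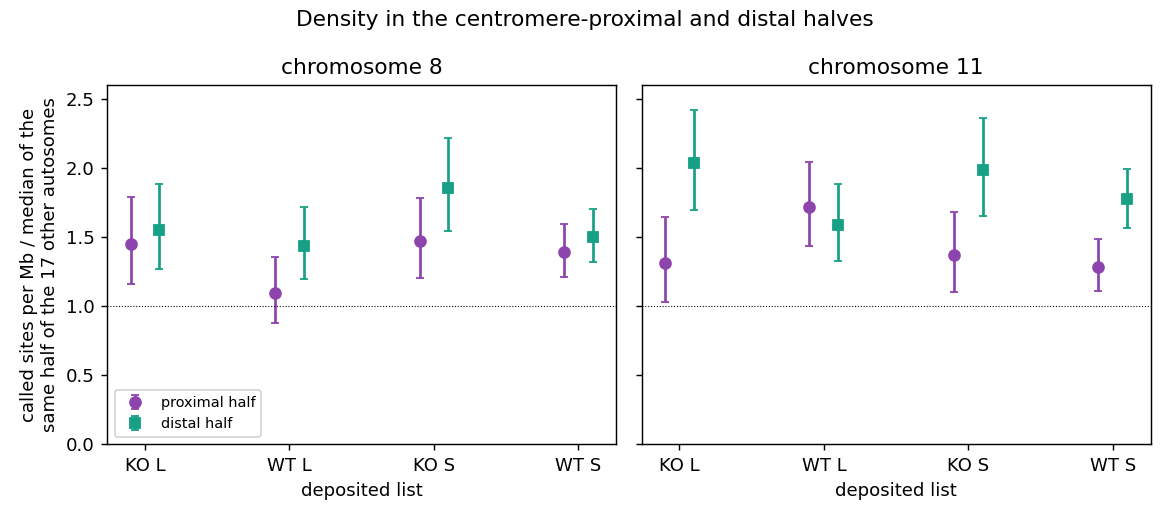
Called sites per Mb in the centromere-proximal and the distal part of chromosome 8 (left) and chromosome 11 (right), split at the middle of the span and divided by the median of the same part of the 17 other autosomes, with exact 95% Poisson intervals of the count. The distal part of chromosome 11 reaches 2.03 in KO L and 1.98 in KO S, and the proximal part of chromosome 8 is lowest in WT L at 1.10.

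The KO lists held fewer calls than the WT lists on both chromosomes, and on each of the other autosomes except chromosome 17 in L. On chromosome 8 the ratio of KO to WT calls was 0.909 in L DNA (exact 95% interval 0.743 to 1.11, which includes 1) and 0.503 in S DNA (0.427 to 0.591). On chromosome 11 the ratio was 0.788 in L DNA (0.652 to 0.952) and 0.476 in S DNA (0.403 to 0.561). The other autosomes together had 0.752 in L DNA (0.711 to 0.795) and 0.450 in S DNA (0.429 to 0.472), and each interval of chromosomes 8 and 11 included that value. In the order of the 19 autosomes, from the highest ratio down, chromosome 8 came 5th in L and 4th in S, and chromosome 11 came 8th in both. The other autosomes ran from 0.640 on chromosome 10 to 1.07 on chromosome 17 in L, and from 0.337 on chromosome 3 to 0.585 on chromosome 17 in S. The numbers were not corrected for depth.

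**Figure D4:**
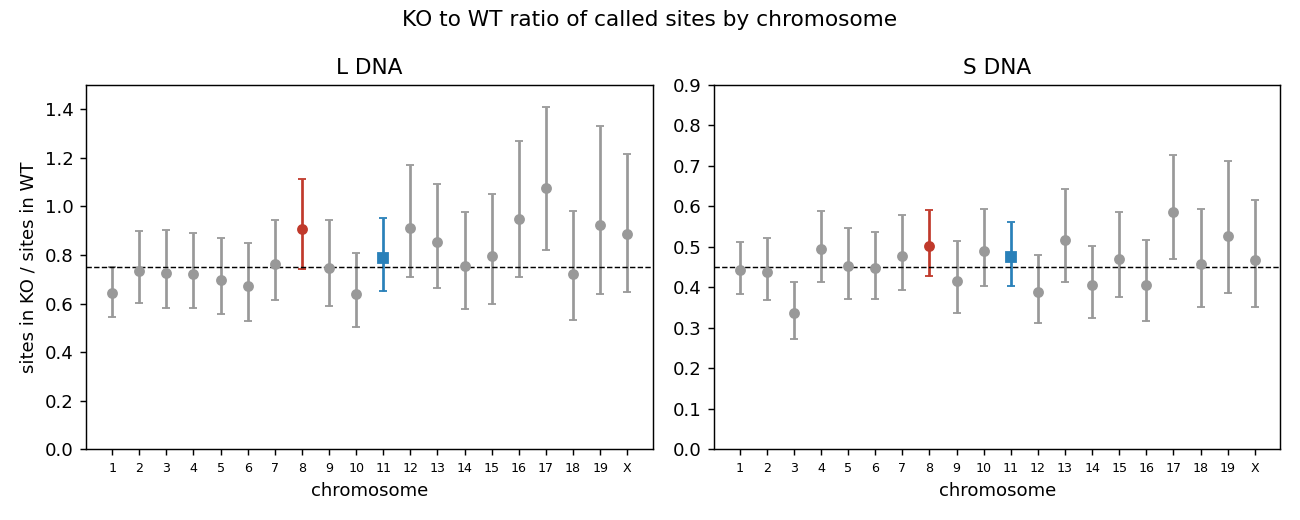
Calls in KO divided by calls in WT (vertical axis) for each autosome and chromosome X in L DNA (left) and S DNA (right), with exact 95% binomial intervals and a dashed line at the other autosomes together. Chromosome 8 lies at 0.909 in L and 0.503 in S and chromosome 11 at 0.788 and 0.476, each with an interval that includes the dashed line.

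The ratios for chromosome 8 turned on which calls were counted. At a score of 30 or more the ratio of KO to WT calls was 1.41 in L DNA and 0.283 in S DNA, and at coverage of 25 or more the ratio was 6.5 in L, from 15 calls in all, and 0.138 in S. At a second score (the fit to N6-methyladenine) of 20 or more it was 1.57 in L. At coverage of 25 or more the ratio of chromosome 11 was 0.220 in S. On the other autosomes KO held fewer calls than WT at each of these settings. At a score of 30 or more they held 358 calls in KO L and 434 in WT L, and 457 in KO S and 1218 in WT S. At coverage of 25 or more it was 84 in KO L and 108 in WT L, and 157 in KO S and 649 in WT S. At a second score of 20 or more it was 189 in KO L and 265 in WT L.

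Median coverage at the called bases of both chromosomes lay within 2 of that of the other autosomes in each list. The median on chromosome 8 was 10 in KO L, 9 in WT L, 10 in KO S and 15 in WT S, and on chromosome 11 it was 10 in KO L, 10 in WT L, 11 in KO S and 14 in WT S. The other autosomes had 10 in KO L, 10 in WT L, 11 in KO S and 13 in WT S, and chromosome X had 9 in KO L, 10 in WT L, 10 in KO S and 13 in WT S. In WT S the share of calls with coverage of 25 or more was 17.7% on chromosome 8 (exact 95% interval 14.3% to 21.5%), higher than on each of the 17 others, and 12.996% on chromosome 11 (10.04% to 16.4%), against 11.9% on the other autosomes (11.1% to 12.8%). In KO S it was 4.82% on chromosome 8 and 6.02% on chromosome 11, against 6.42%. In L the same share was 6.84% in KO and 0.957% in WT on chromosome 8, from 13 and 2 calls.

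Restricting the calls changed how far chromosome 8 stood above the others. At a score of 30 or more its relative density was 0.861 in WT L, from 22 calls, and 1.05 in KO S, from 30 calls, and at coverage of 25 or more it was 2.51 in KO L and 0.386 in WT L, from 13 and 2 calls. Chromosome 11 at coverage of 25 or more stood at 1.02 in KO L, from 5 calls. Joining calls within 50 bases of each other left both chromosomes between 1.36 and 1.71 in the 4 lists.

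The kinetic signal was lower than elsewhere in WT S. The median IPD ratio there was 2.46 on chromosome 8 (exact 95% interval of the median 2.37 to 2.57) and 2.51 on chromosome 11 (2.45 to 2.64), the lowest of the 19 autosomes, against 2.65 on the other autosomes together (2.62 to 2.68). In KO S it was 2.65 on chromosome 8 (2.58 to 2.79) and 2.66 on chromosome 11 (2.53 to 2.84), against 2.77 (2.73 to 2.81). In KO L it was 2.595 on chromosome 8 and 2.69 on chromosome 11, against 2.67, and in WT L it was 2.67 on chromosome 8 and 2.79 on chromosome 11, against 2.64. In WT S the median coverage of 15 on chromosome 8 and 14 on chromosome 11 stood above the 13 of the other autosomes, whereas in KO S the 10 on chromosome 8 stood below their 11. The part of coverage in the IPD ratios was not tested. At coverage of 25 or more, the WT S median on chromosome 8 was 0.05 above that of the other autosomes and that on chromosome 11 was 0.01 below it. At a score of 30 or more both stayed below it, by 0.23 on chromosome 8 and 0.17 on chromosome 11.

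The estimated modified fraction, which the lists give only at coverage of 11 or more, showed the same order in WT S. Its median was 65.7% on chromosome 8 (59.7% to 71.8%, 323 calls) and 68.0% on chromosome 11 (64.0% to 74.3%, 311 calls), against 73.6% on the other autosomes (71.8% to 75.3%). In KO L the median was 61.7% on chromosome 8 (53.9% to 71.6%, 87 calls), below each of the 17 others, and 66.3% on chromosome 11, against 71.95%. In WT L it was 74.8% on chromosome 8 and 75.4% on chromosome 11, against 74.0%. In KO S the chromosomes parted, with 71.7% on chromosome 8 (63.4% to 82.3%) and 87.8% on chromosome 11 (80.4% to 93.8%), against 78.7%.

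**Figure D5:**
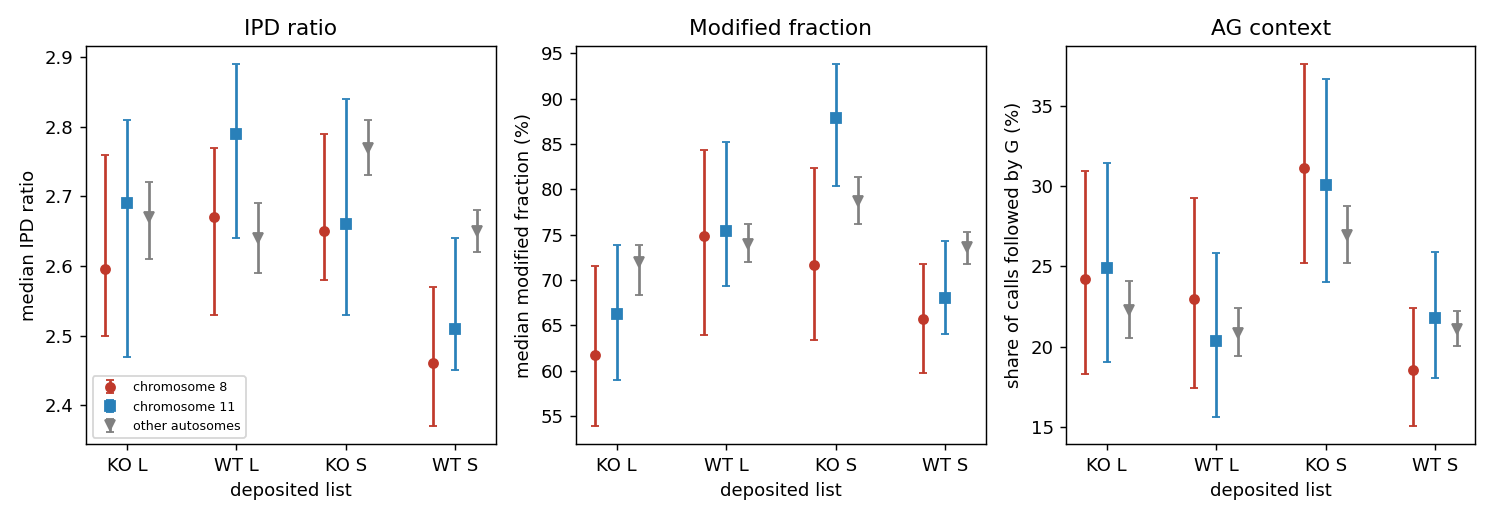
Median IPD ratio (left), median modified fraction in percent (middle) and share of calls followed by G in percent (right) on chromosome 8, chromosome 11 and the other autosomes in the 4 lists, with exact 95% intervals. In WT S the medians of both chromosomes lie below the other autosomes (IPD ratio 2.46 and 2.51 against 2.65), and in KO S the modified fraction of chromosome 11 is the highest of the 3 at 87.8%. The vertical axes do not start at 0.

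The share of calls followed by a guanine was close to that of the other autosomes. A guanine followed the called adenine on chromosome 8 in 24.2% of calls in KO L (18.3% to 30.9%), 23.0% in WT L (17.4% to 29.3%), 31.1% in KO S (25.2% to 37.6%) and 18.5% in WT S (15.1% to 22.4%). On chromosome 11 this share was 24.9% in KO L, 20.4% in WT L, 30.1% in KO S and 21.8% in WT S, and on the other autosomes it was 22.3% in KO L, 20.9% in WT L, 26.95% in KO S and 21.1% in WT S. Each interval of chromosome 8 and of chromosome 11 included the share of the other autosomes in its list. KO minus WT was 12.6 percentage points on chromosome 8 and 8.29 on chromosome 11 in S, against 5.85 on the other autosomes. In L it was 1.24 points on chromosome 8 and 4.48 on chromosome 11, against 1.44.

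Triplets are written with the called base in the middle, and AAA led or shared the lead in 6 of the 8 combinations of chromosome and list. AAA was the context of 12.1% of calls in KO L, 9.09% in WT L, 10.1% in KO S and 14.6% in WT S on chromosome 8. On chromosome 11 it was that of 16.9% in KO L, 12.5% in WT L, 10.6% in KO S and 13.7% in WT S, above the other autosomes in each list, by 5.14 points in KO L and by less in the rest. AAA was still rarer at called adenines than at the remaining adenines of their contexts, at 0.550 to 0.794 times that share on chromosome 8 and 0.634 to 0.877 times on chromosome 11 over the 4 lists. CAT was commoner than at those remaining adenines, at 1.22 to 2.53 times on chromosome 8 and 1.17 to 2.27 times on chromosome 11. The other autosomes showed the same, with AAA at 0.665 to 0.710 times and CAT at 1.61 to 2.16 times. CAG led the list of chromosome 8 in KO S with 12.3% of calls (28 of 228), against 5.08% in WT S (23 of 453), and on chromosome 11 it was 10.6% in KO S and 7.71% in WT S. On the other autosomes CAG was also commoner in KO S, at 9.33%, than in WT S, at 7.55%. Of the 16 triplets, AAA and CAG were higher on chromosome 11 than on the other autosomes in 4 of 4 lists and GAA was lower in 4 of 4, and on chromosome 8 no triplet differed in the same direction in all lists. The exact 95% interval left out the share of the other autosomes in 8 of 64 combinations of triplet and list on chromosome 8 and in 1 of 64 on chromosome 11. The single case on chromosome 11 was AAA in KO L. On chromosome 8, 5 of the 8 lay in WT S, where CAT (7.06%, against 10.97% on the other autosomes), CAG (5.08%, against 7.55%) and GAC (1.10%, against 3.17%) were rarer and GAA (11.3%, against 7.64%) and AAT (10.2%, against 6.51%) were commoner. The other 3 were CAC and GAT in KO S (1.32%, against 5.32%, and 9.21%, against 4.83%) and CAC in WT L (8.13%, against 4.06%). These intervals were not adjusted for the number of triplets.

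The median GC content of the contexts was 43.9% on both chromosomes in KO L and in WT L, 42.7% on chromosome 8 and 43.9% on chromosome 11 in KO S, and 41.5% on both in WT S, against 41.5% on the other autosomes in each list. No call on chromosome 8 or 11 had a satellite-like context, that is, one similar to the major tandem repeat beside mouse centromeres. The plus strand held 58.4% of the calls of chromosome 8 in KO L (51.1% to 65.5%), and 54.5% in WT L, 114 of 228 calls in KO S and 49.01% in WT S. On chromosome 11 it held 47.3% in KO L, 45.9% in WT L, 45.4% in KO S and 49.1% in WT S. The other autosomes had 51.4% in KO L, 51.4% in WT L, 49.6% in KO S and 49.4% in WT S. The KO L interval of chromosome 8 included their share.

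No base of chromosome 8 or 11 was called in more than a single list, over all 6 pairs of lists. None of the 190 KO L calls on chromosome 8 was called in WT L, which allows a share of up to 1.58% (3 counts), and none of the 228 KO S calls was called in WT S, up to 1.32%. On chromosome 11 none of 201 KO L calls and none of 216 KO S calls recurred in WT, which allows up to 1.49% and 1.39%. On the other autosomes 7 of 2183 KO L calls (0.321%) and 9 of 2445 KO S calls (0.368%) were called in the WT list of the same part, so this depth could not show a difference. The nearest WT call lay at a median distance of 203 kb in L and 125 kb in S on chromosome 8, and of 176 kb in L and 120 kb in S on chromosome 11.

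Calls of a list did cluster. A neighbour within 50 bases in the same list was found for 14.7% of calls on chromosome 8 in KO L (10.0% to 20.6%), 7.66% in WT L (4.44% to 12.1%), 11.8% in KO S (7.95% to 16.8%) and 22.5% in WT S (18.8% to 26.6%). On chromosome 11 the share was 14.9% in KO L, 12.2% in WT L, 9.26% in KO S and 16.96% in WT S. On the other autosomes it was 11.2% in KO L, 11.2% in WT L, 13.9% in KO S and 16.9% in WT S. In WT S on chromosome 8 the median coverage was 21.5 at the clustered calls and 13 at the single ones, and the median IPD ratio was 2.36 and 2.52. Calls within a few bases of each other may come from the same molecules and need not be independent.

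The contexts of 4 clusters are printed because the clusters make up part or all of the count of the gene or bin they lie in. These clusters were chosen after their values were seen. Capitals mark the called adenine with the highest score of the cluster.
KO L, outside genes, chr11:53756533-53756573, plus strand: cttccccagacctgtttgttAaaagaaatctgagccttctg
WT L, Thra, chr11:98751663-98751703, plus strand: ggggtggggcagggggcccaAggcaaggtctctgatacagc
WT S, outside genes, chr8:120903700-120903740, minus strand: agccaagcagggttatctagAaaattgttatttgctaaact
WT S, Elac2, chr11:64985272-64985312, minus strand: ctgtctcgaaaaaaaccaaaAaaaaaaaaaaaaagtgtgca

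The cluster in KO L at 53.8 Mb of chromosome 11 held 4 calls within 49 bases, at coverage of 12 to 14 and IPD ratios of 2.79 to 3.36. The cluster in Thra, which encodes the thyroid hormone receptor alpha, held 4 calls within 45 bases in WT L, at a coverage of 13 each and IPD ratios of 2.19 to 5.34. The largest cluster of either chromosome held 8 calls within 128 bases in WT S at 121 Mb of chromosome 8, of which 7 were on the minus strand, with coverage of 25 to 31 and a median IPD ratio of 1.88. The cluster in Elac2, which encodes a tRNA-processing nuclease, held 4 calls within 9 bases of a run of adenines, at IPD ratios of 2.45 to 4.13.

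Calls fell in 309 of the 2381 annotated genes of chromosome 8 (12.98%) and in 400 of the 3087 of chromosome 11 (12.96%). Genes with a call were long, with a median of 45.3 kb on chromosome 8 and 45.5 kb on chromosome 11, against 5.02 and 5.30 kb for genes without. In the 4 lists together, 63 genes of chromosome 8 and 72 of chromosome 11 held 3 calls or more, and 5 genes of each held a call in all 4 lists. Genes were taken from start to end on GRCm38.p6 (the mm10 build), so introns and exons were not told apart.

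On chromosome 8 the genes with the most calls were led by very long genes of adhesion and neuronal function. Csmd1 (15892538 to 17535385), which encodes a large membrane protein with complement-control domains, held 1 call in KO L, 6 in WT L, 0 in KO S and 7 in WT S. Dlgap2 (14095776 to 14853426), which encodes a postsynaptic scaffold protein, held 7 in KO L, 0 in WT L, 5 in KO S and 1 in WT S. The WT lists thus held more calls than the KO lists in Csmd1 and fewer in Dlgap2, in both L and S, from 14 and 13 calls.

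Wwox (114439635 to 115352712), an oxidoreductase gene that spans a common fragile site, held 4 calls in KO L, 1 in WT L, 3 in KO S and 4 in WT S. Sgcz (37517840 to 38661705), a sarcoglycan gene, held 2 in KO L, 6 in WT L, 3 in KO S and 1 in WT S. The teneurin gene Tenm3 (48225665 to 49522824) held 4 in KO L, 1 in WT L, 1 in KO S and 6 in WT S. In these 3 genes no genotype held more calls in both L and S. The cadherin gene Cdh13 held 1 in KO L, 5 in WT L, 0 in KO S and 4 in WT S. The calcium channel gene Cacna1a held 3 in KO L, 1 in WT L, 5 in KO S and 0 in WT S. Nrg1, which encodes the growth factor neuregulin, held 2 in KO L, 0 in WT L, 6 in KO S and 1 in WT S. Cdh13 therefore lay with Csmd1, and Cacna1a and Nrg1 with Dlgap2, in which genotype held more calls.

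Other genes had their calls mainly in WT S. Pcnx2 held 0 in KO L, 2 in WT L, 0 in KO S and 8 in WT S, at a median coverage of 33.5, and its 10 calls joined to 5 when those within 50 bases were counted once. The phosphatase gene Inpp4b held 0 in KO L, 1 in WT L, 0 in KO S and 8 in WT S. WT S was also the longest list, with 7142 of the 17418 calls of the series. The ubiquitin ligase gene Sh3rf1 held 0 in KO L, 1 in WT L, 4 in KO S and 2 in WT S. Ranking by number of calls favours long genes, and the ranked genes of chromosome 8 described here were all over 100 kb.

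On chromosome 11 the leading genes held 5 to 11 calls each. Slc39a11 (113244851 to 113650200), a zinc transporter gene, held 2 in KO L, 1 in WT L, 1 in KO S and 7 in WT S. Myo1d, an unconventional myosin gene, held 1 in KO L, 2 in WT L, 0 in KO S and 6 in WT S, and its 9 calls joined to 6. Elac2 (64979030 to 65002080) held its 6 calls in WT S, and they joined to 2. In these 3 genes most calls were again in the longest list.

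The acid-sensing ion channel gene Asic2 held 1 call in KO L, 2 in WT L, 2 in KO S and 4 in WT S. The teneurin gene Tenm2 held 3 in KO L, 2 in WT L, 3 in KO S and 1 in WT S, and the axon guidance gene Slit3 held 1 in KO L, 0 in WT L, 2 in KO S and 4 in WT S. These 3 genes had calls of both genotypes. Top3a (60738209 to 60777365), which encodes a topoisomerase, had 3 calls in KO L and 2 in WT L and none in S. The sarcoglycan gene Sgcd had 4 of its 6 calls in WT L. Sfi1, Tns3, Col23a1 and Ebf1 held 6 calls each, spread over 2 to 4 lists.

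Gene groups were counted within each gene and 5 kb on each side, each call once per group. On this basis 483 of the 2381 genes of chromosome 8 (20.3%) and 611 of the 3087 of chromosome 11 (19.8%) had a call. The groups differ in gene length, which was not matched. Of 11 DNA damage response genes on chromosome 11, 5 held a call, with 3 calls in KO L, 3 in WT L, 2 in KO S and 8 in WT S. Rad50, of the break-sensing MRN complex, held 0 in KO L, 1 in WT L, 0 in KO S and 3 in WT S, and Brca1, of homologous recombination, held 1 call in KO S and 1 in WT S. Of 16 growth and survival genes, 12 had a call, with 1 in KO L, 10 in WT L, 4 in KO S and 10 in WT S. Thra had all its 4 calls and the adaptor gene Grb2 all its 3 in WT L, and the kinase gene Prkca had 1 in KO L, 1 in WT L, 0 in KO S and 3 in WT S. The 4 calls of Thra are the cluster within 45 bases described above and need not be independent, and the 10 of WT L include them.

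The tandem gene clusters of chromosome 11 are given beside the same 19.8% of all its genes. The 10 Hoxb genes, which set positional identity, had 1 call, in Hoxb6 in KO S. The 50 type I keratin genes, which form epithelial filaments, had 7 calls at 7 of them. The 83 olfactory receptor genes had 7 calls at 7 of them, 5 of these calls in KO S. The 11 Ccl chemokine genes had 1 call, in Ccl9 in WT L, the 8 Schlafen genes had 3 in their flanks, and the 6 skeletal myosin genes had 2, both in KO L. The 5 alpha globin genes, which serve oxygen transport, had none. These groups differ in gene length too, and the depth behind a gene with no call is not known.

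On chromosome 8, 4 of 8 cadherin genes held a call, with 2 calls in KO L, 7 in WT L, 2 in KO S and 8 in WT S, and E-cadherin (Cdh1), which holds ES cells together, had its 2 calls in KO S. Of 20 genes of DNA and chromatin maintenance, 9 held a call, with 5 in KO L, 3 in WT L, 3 in KO S and 6 in WT S. Fto, which encodes a demethylase of N6-methyladenosine in RNA, held 0 in KO L, 2 in WT L, 1 in KO S and 1 in WT S. The helicase gene Wrn held 1 in KO L, 0 in WT L, 2 in KO S and 1 in WT S. Of 19 transcription factor genes, 3 had a call within 5 kb, with 1 in KO L, 2 in WT L, 2 in KO S and 0 in WT S. The 52 defensin genes had 5 calls near 4 of them, the 19 carboxylesterase genes had 1, and the 4 metallothionein genes had none. All 14 very long genes held calls, 126 over the 4 lists, a count that is not set against their length. Per kb, Csmd1 held 0.00852 calls, Tenm3 0.00925, Sgcz 0.0105 and Dlgap2 0.0172. Chromosome 8 as a whole held 1080 calls over a span of 129 Mb.

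Few calls lay at gene starts, a share near that of the span which promoter windows cover. In promoter windows of 250 bases before to 50 after the start, from RefSeq (GRCm38.p6), chromosome 8 had 4 of its 1080 calls (0.370%), 2 in KO L and 2 in KO S, in windows that cover 0.307% of its span. Chromosome 11 had 5 of its 1126 calls (0.444%), 2 in WT L and 3 in WT S, in windows that cover 0.519%. No call lay in any of the 40 and 83 miRNA hairpins of the RefSeq table on the 2 chromosomes. Besides the call before Dnajb1 printed above, the following promoter contexts held a call in genes with known roles, again with the called adenine in capitals.
KO L, Sall1, chr8:89044169-89044209, plus strand: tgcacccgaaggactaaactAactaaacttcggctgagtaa
KO S, Pex11g, chr8:3467622-3467662, minus strand: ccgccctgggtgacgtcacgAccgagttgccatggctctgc
WT L, Ppp2ca, chr11:52098731-52098771, minus strand: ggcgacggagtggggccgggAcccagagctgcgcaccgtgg
WT L, Grb2, chr11:115699535-115699575, minus strand: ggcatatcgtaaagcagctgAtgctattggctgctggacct
WT S, Ndel1, chr11:68853097-68853137, plus strand: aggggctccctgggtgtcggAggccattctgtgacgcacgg

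Dnajb1 encodes a co-chaperone of the heat shock response, and its call in KO L lay 145 bases before the start, on the minus strand, with a coverage of 11 and an IPD ratio of 3.72. It also lay 180 bases before the start of Gm42029, on the opposite strand to Dnajb1. Sall1 encodes a zinc finger transcription factor expressed in ES cells, and its call in KO L lay 27 bases before the start, at a coverage of 6 and an IPD ratio of 3.71. The call at Ppp2ca, the catalytic subunit gene of protein phosphatase PP2A, lay 73 bases before the start in WT L, at a coverage of 15. The call at Grb2 lay 21 bases before a start in WT L, at a coverage of 6. Ndel1, a dynein regulator gene, had 2 calls in WT S, 18 bases after and 165 bases before the start, at coverages of 22 and 26, and Pex11g, a peroxisome gene, had 1 call in KO S, 6 bases after the start, at a coverage of 11. Each of these promoters was called in a single list.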

How the data were processed

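Per the labels' protocols, native chromatin of TT2 ES cells was precipitated with an H2A.X antibody and sequenced in L and S parts. The submitters' processing notes name mm10. Aligner, filters and the joining of replicates: not given in the sources used here. The authors deposited 1 list of called adenines per group (its source field reads kinModCall) with 2 scores whose scale no source used here states. The deposited IPD ratio is linear. The deposited coverage is not normalized. The modified fraction is deposited at coverage of 11 or more. Values were used unfiltered, with Python 3.11.15, numpy 2.4.6, pandas 2.3.3 and scipy 1.17.1.

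Calls were counted over a span running from the first to the last gene or call of a chromosome. Intervals at 95% are exact (Clopper-Pearson for shares, Poisson for counts, order statistics for medians), cover counting error only and treat calls as independent. Counting was tested on simulated data with independent draws and a common rate for the other autosomes, so clustering of calls was not covered. A satellite-like context shared at least 3 words of 12 bases with the repeat consensus (234 bases, textbook knowledge). All 59 contexts inside RefSeq promoters equalled that sequence on the called strand. The text names the 12 genes with most calls per chromosome, up to 4 members of each gene group, the 3 fullest and emptiest full bins and the highest-scoring calls. Some of what these rules took is not reported here. Chromosomes, groups and rules were chosen with earlier results of these data known. Other settings tried are in the closing section.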

Additional observations from a re-analysis of the deposited data

Results flagged for a closer look

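KO minus WT had opposite signs in L and S for several measures of the calls on chromosomes 8 and 11. With 1 list per group, none of these differences between L and S was tested. The median IPD ratio differed by -0.075 in L and 0.19 in S on chromosome 8, and by -0.1 in L and 0.15 in S on chromosome 11, against 0.03 and 0.12 on the other autosomes. The median modified fraction differed by -13.1 points in L and 5.95 in S on chromosome 8, and by -9.1 in L and 19.8 in S on chromosome 11, against -2.05 and 5.1 on the other autosomes. The share of calls in genes differed by 0.228 points in L and -2.95 in S on chromosome 11, against -2.32 in L and -1.52 in S on the other autosomes. Median coverage moved in S, where KO minus WT was -5 on chromosome 8 and -3 on chromosome 11, against -2 on the other autosomes, and its part in these values was not tested.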

How the results depend on the processing

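No paired analysis was possible because each list joins both replicates of its group, and for the same reason no replicate could be left out. Of 268 values under other settings, 203 stayed within the interval of the reported value and 65 left it, and the cause was not tested. All values stayed within it at coverage of 50 or less, which left out few calls, and without satellite-like contexts. No call on chromosome 8 or 11 had such a context, so their counts could not change without them. Their KO to WT ratios could not change with the 3 windows kept either, since those lie on other chromosomes. The 203 values include these. Many of the values below rest on under 35 calls, since the score and coverage settings leave out calls. Depth outside the called bases is not known. The relative density at a coverage of 25 or more was 2.51 on chromosome 8 in KO L, 1.02 on chromosome 11 in KO L, 0.386 on chromosome 8 in WT L, 1.23 on chromosome 11 in WT L, 1.19 on chromosome 8 in KO S and 2.1 on chromosome 8 in WT S. The median IPD ratio minus that of the other autosomes at a coverage of 25 or more was -0.2 on chromosome 8 in KO L, -0.28 on chromosome 11 in KO L, -0.285 on chromosome 11 in WT L, -0.23 on chromosome 8 in KO S and 0.05 on chromosome 8 in WT S. The AG share minus that of the other autosomes, in points, at a coverage of 25 or more was -17.9 on chromosome 11 in KO L, -18.5 on chromosome 8 in WT L, -18.5 on chromosome 11 in WT L, -28 on chromosome 8 in KO S, -12.6 on chromosome 11 in KO S and -5.39 on chromosome 11 in WT S. Median coverage relative to the other autosomes at a coverage of 25 or more was 1 on chromosome 8 in WT S and 0.933 on chromosome 11 in WT S. The KO to WT ratio at a coverage of 25 or more was 6.5 on chromosome 8 in L, 0.138 on chromosome 8 in S and 0.22 on chromosome 11 in S. The relative density at a second score of 20 or more was 1.96 on chromosome 8 in KO L, 1.22 on chromosome 11 in KO L, 1.08 on chromosome 8 in WT L, 1.15 on chromosome 8 in KO S, 1.24 on chromosome 8 in WT S and 1.31 on chromosome 11 in WT S. The median IPD ratio minus that of the other autosomes at a second score of 20 or more was 1.29 on chromosome 11 in KO L, -0.155 on chromosome 8 in WT L, -0.14 on chromosome 11 in WT L, 0.19 on chromosome 8 in KO S and 0.335 on chromosome 11 in KO S. The AG share minus that of the other autosomes, at a second score of 20 or more, was in points -8.38 on chromosome 8 in WT L and 12.4 on chromosome 11 in WT S. Median coverage relative to the other autosomes at a second score of 20 or more was 0.692 on chromosome 8 in WT L, 0.846 on chromosome 11 in WT L, 0.667 on chromosome 8 in KO S and 0.867 on chromosome 11 in KO S. The KO to WT ratio at a second score of 20 or more was 1.57 on chromosome 8 in L, 0.591 on chromosome 11 in L and 0.352 on chromosome 8 in S. The relative density for sites in genes per Mb of gene was 1.82 on chromosome 8 in KO L. Median coverage relative to the other autosomes at a score of 30 or more was 0.88 on chromosome 8 in KO L, 0.8 on chromosome 11 in KO L, 0.75 on chromosome 8 in WT L, 0.75 on chromosome 11 in WT L and 1.26 on chromosome 8 in WT S. The AG share minus that of the other autosomes, in points, at a score of 30 or more was -5.32 on chromosome 11 in KO L, 9.7 on chromosome 8 in WT L, -4.95 on chromosome 8 in KO S and -4.96 on chromosome 11 in WT S. The relative density at a score of 30 or more was 0.861 on chromosome 8 in WT L, 1.33 on chromosome 11 in WT L, 1.05 on chromosome 8 in KO S and 1.32 on chromosome 11 in WT S. The median IPD ratio minus that of the other autosomes at a score of 30 or more was -0.08 on chromosome 11 in WT L and -0.29 on chromosome 8 in KO S. The KO to WT ratio at a score of 30 or more was 1.41 on chromosome 8 in L, 1.03 on chromosome 11 in L and 0.283 on chromosome 8 in S. Median coverage relative to the other autosomes with calls within 50 bases joined was 1.11 on chromosome 11 in KO L. Median coverage relative to the other autosomes with the 3 windows kept was 1.07 on chromosome 8 in WT S. The percentage of bins above the median bin with 10 Mb bins was 100 on chromosome 8 in KO S and 90.9 on chromosome 11 in WT L.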
